A study of Homo sapiens with 3 samples.

Results

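The proteasome genes of H9 cells were examined, that is, the 48 protein-coding genes whose GENCODE symbol starts with PSMA to PSMG followed by a number, out of 58051 genes counted, of which 19629 were protein-coding. H9 is a long-established line of human embryonic stem cells. RNA was sequenced after depletion of ribosomal RNA from 3 untreated wild-type replicates, grown in Essential 8 Flex medium on vitronectin, and there was 1 condition and 1 line. The labels number the replicates and do not say whether they were separate cultures, so that the spread between them may be technical. The study used the RNA levels to sort genes by expression class. The libraries held 10390984, 12024802 and 8655155 reads on genes in replicates 1, 2 and 3. The proteasome genes took 55462, 65271 and 44361 of these reads, which was 0.534%, 0.543% and 0.513%.

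The proteasome is the protease that degrades proteins tagged with ubiquitin. Its 20S core is a barrel made of outer alpha rings and inner beta rings, and only the beta1, beta2 and beta5 positions cut peptide bonds. The 19S particle, made of a base with ATPases and a lid, caps the core, recognises the ubiquitin chain, removes it and unfolds the substrate. Some cells use other forms. Interferon-gamma induces PSMB8, PSMB9 and PSMB10, which take the place of PSMB5, PSMB6 and PSMB7 in the immunoproteasome and favour peptides that fit MHC class I. PSMB11 takes the beta5 position in the thymic cortex, and PSMA8 takes the place of PSMA7 in the testis. The members were sorted by these known roles into 31 constitutive subunits, 3 immune subunits, 1 thymus subunit, 1 testis subunit, and the remaining activators, regulator and assembly chaperones.

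To set the immune subunits beside the constitutive catalytic subunit with a promoter entry, the 250 bases before the transcription start are shown for PSMB5, PSMB8, PSMB9 and PSMB10, and for PSME2, an activator subunit that interferon also induces. They are RefSeq promoters on GRCh38.p14, 5′ to 3′ on the strand of the gene, and each ends at the start of the GENCODE canonical transcript. Capitals mark the motifs found, which were the interferon-stimulated response element core, GAAA and GAAA with any 2 bases between them, the gamma-activated site TTCNNNGAA and the antioxidant response element core TGACNNNGC, each searched on both strands. The gamma-activated site reads the same on both, none of the marked motifs overlap, and CCAAT boxes are not marked.
PSMB5 (chr14:23034901-23035150, strand minus): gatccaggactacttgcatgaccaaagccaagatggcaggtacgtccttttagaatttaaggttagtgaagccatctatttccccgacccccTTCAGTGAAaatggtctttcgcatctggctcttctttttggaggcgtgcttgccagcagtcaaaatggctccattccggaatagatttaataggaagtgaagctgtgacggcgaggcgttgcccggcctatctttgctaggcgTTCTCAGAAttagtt
PSMB8 (chr6:32844048-32844297, strand minus): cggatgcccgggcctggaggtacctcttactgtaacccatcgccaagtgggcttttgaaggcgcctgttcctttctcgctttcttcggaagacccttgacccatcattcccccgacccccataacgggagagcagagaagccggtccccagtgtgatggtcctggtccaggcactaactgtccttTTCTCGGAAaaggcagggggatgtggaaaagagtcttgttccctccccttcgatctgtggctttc
PSMB9 (chr6:32853942-32854191, strand plus): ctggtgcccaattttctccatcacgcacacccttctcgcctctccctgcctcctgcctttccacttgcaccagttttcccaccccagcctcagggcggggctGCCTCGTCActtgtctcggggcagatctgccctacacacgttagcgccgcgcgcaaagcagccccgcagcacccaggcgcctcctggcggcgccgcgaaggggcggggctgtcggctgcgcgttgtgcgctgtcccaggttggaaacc
PSMB10 (chr16:67936851-67937100, strand minus): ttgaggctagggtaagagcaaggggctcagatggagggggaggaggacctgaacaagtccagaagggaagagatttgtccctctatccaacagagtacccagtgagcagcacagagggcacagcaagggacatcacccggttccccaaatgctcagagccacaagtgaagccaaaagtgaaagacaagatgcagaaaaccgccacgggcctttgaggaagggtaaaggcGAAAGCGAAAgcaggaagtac
PSME2 (chr14:24146611-24146860, strand minus): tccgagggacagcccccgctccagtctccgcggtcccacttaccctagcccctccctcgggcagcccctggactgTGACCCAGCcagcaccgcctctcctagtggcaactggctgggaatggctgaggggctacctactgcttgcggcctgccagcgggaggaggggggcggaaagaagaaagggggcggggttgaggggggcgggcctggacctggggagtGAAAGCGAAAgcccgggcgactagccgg

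PSMB10 and PSME2 each held the interferon-stimulated core, starting at positions -21 and -28 from the start site. PSMB8 held a gamma-activated site at position -65, and PSMB5, a constitutive subunit, held the same motif at positions -158 and -15. The antioxidant core, a part of the site that the transcription factor NFE2L1 uses when it raises proteasome genes, lay in the promoters of PSMB9, on the minus strand, and PSME2. Among all 51 promoters of the 42 members that had an entry, 25.5% held the antioxidant core, against 10.9% of 35116 promoters of the same length in the table. The shares were 9.80% against 3.02% for the interferon-stimulated core, 13.7% against 6.57% for the gamma-activated site and 37.3% against 32.0% for CCAAT, a general promoter box. Counted per gene over all its promoters, the antioxidant core was in 5 of 26 constitutive genes. It was also in 4 of 6 assembly chaperones, namely PSMD5, PSMD9, PSMG1 and PSMG2. For PSMA4, PSMC5 and PSMG2 it was not in the promoter at the canonical start. It lay in promoters that end at positions 342, 290 and -44304 from that start. The share per gene among other genes was not computed. The interferon-stimulated core was in PSMA4, PSMB4 and PSMG4 besides PSMB10 and PSME2, for PSMA4 in a promoter that ends at position -39 from the canonical start. A match to these letters is a description and shows no binding.

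Levels are given as TPM (a read count per length of transcript, scaled to the same total in each library), obtained here from the deposited counts and the summed length of a gene's exons in GENCODE release 44, so that genes of different length can be set side by side. A level under 0.01 TPM counted as nonexpressed, and the other protein-coding genes were divided by rank into 3 equal classes with boundaries at 3.35 and 26.96 TPM, named low, medium and high. The 48 proteasome genes summed to 5960 ± 205 TPM (SD, n = 3). Of these, 36 were in the high class, 6 in the medium class and 6 in the low class, and 28.8% of all protein-coding genes were high. More than 3 reads in every replicate were counted for 44 of 48, against 71.9% of protein-coding genes. The 31 constitutive subunits had a median of 139 TPM, and their medians were 143, 137 and 137 TPM in replicates 1, 2 and 3. Of them 29 were in the high class and 2 in the medium class. The immune subunits had a median of 2.38 TPM. The testis and the thymus subunit had 1 read each in all libraries together.

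**Figure D1:**
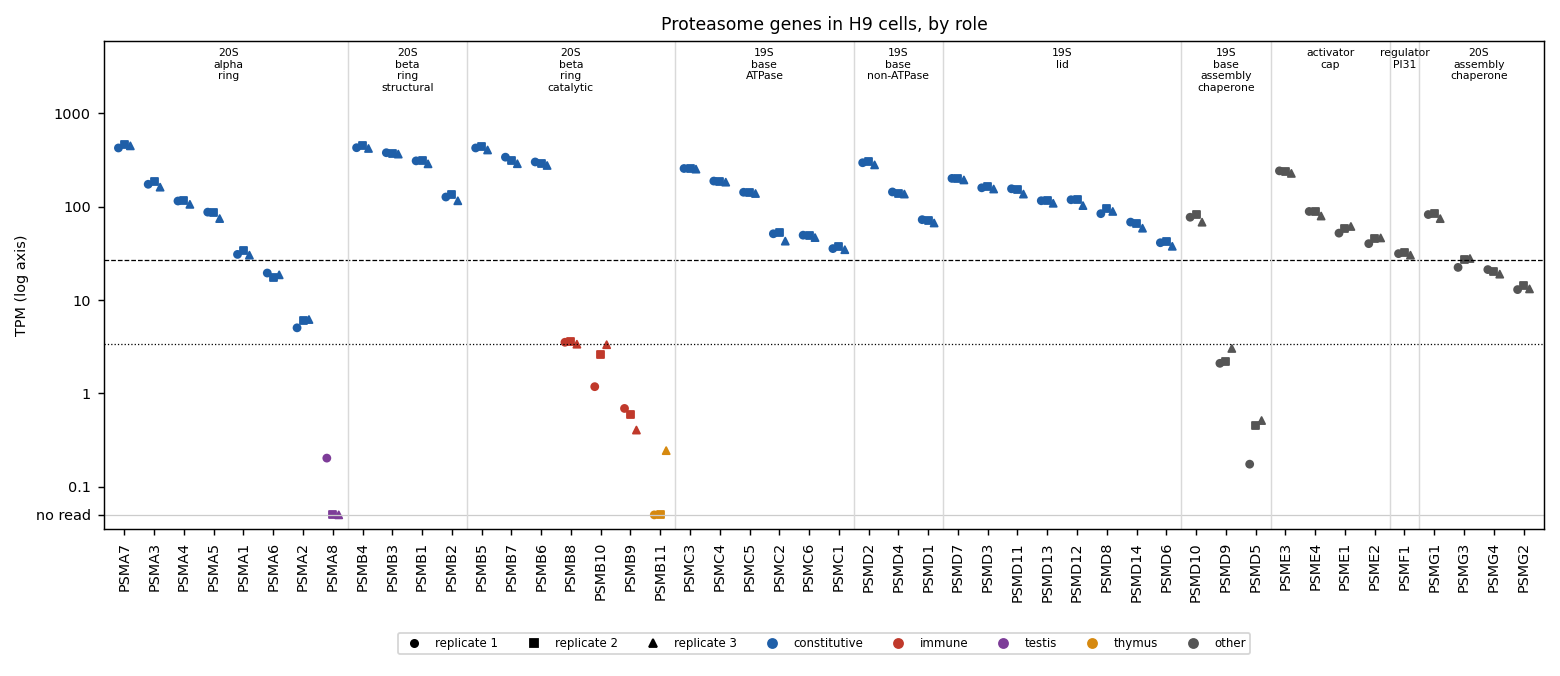
TPM of each of the 48 proteasome genes in each of 3 replicates, on a log axis, ordered within its role by mean. Colour gives the class and the dashed and dotted lines are the class boundaries at 26.96 and 3.35 TPM. Points on the lowest line had no read. Constitutive subunits lay above the dashed line apart from PSMA2 and PSMA6, and the immune, thymus and testis subunits lay near or below the dotted line.

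In the alpha ring, which gates the entry to the core, PSMA7 (alpha4, ENSG00000101182, chromosome 20, 62136733 to 62143440) had the highest mean of the members, with 426, 460 and 448 TPM, a mean of 445 ± 17.4 (SD, n = 3). Its replicate range overlapped that of PSMB4, which was higher in replicate 1, and with canonical lengths PSMB4 was higher, at 609 against 489 TPM. PSMA3 (alpha7) had 174 ± 12.2 TPM, PSMA4 (alpha3) 112 ± 5.46 TPM and PSMA5 (alpha5) 83.3 ± 7.50 TPM. The remaining alpha subunits were lower. PSMA1 (alpha6) had 30.9, 33.6 and 30.3 TPM, PSMA6 (alpha1) had 19.5, 17.3 and 18.6 TPM, and PSMA2 (alpha2) had 5.04, 6.03 and 6.18 TPM. Each ring of the core holds 1 copy of each of its 7 subunits. The levels of the 7 constitutive alpha genes spanned 77.3-fold, and 24.1-fold with canonical lengths. No replicate range of PSMA1, PSMA6 or PSMA2 overlapped that of PSMA5, but with canonical lengths those of PSMA6 and PSMA5 overlapped.

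The beta ring genes that do not cut were all in the high class. PSMB4 (beta7) had 436 ± 19.4 TPM, PSMB3 (beta3) 372 ± 6.45 TPM, PSMB1 (beta6) 303 ± 12.95 TPM and PSMB2 (beta4) 126 ± 9.39 TPM (SD, n = 3), a span of 3.47-fold, and of 7.84-fold with canonical lengths. The constitutive catalytic genes spanned 1.46-fold, and 1.24-fold with canonical lengths. PSMB5, with chymotrypsin-like activity, had 426, 441 and 405 TPM. PSMB7, with trypsin-like activity, had 339, 310 and 289 TPM, and PSMB6, with caspase-like activity, had 302, 292 and 276 TPM. The replicate ranges of PSMB7 and PSMB6 overlapped and that of PSMB5 lay above both, although with canonical lengths it overlapped that of PSMB7.

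The immune catalytic subunits were each far below their counterparts in every replicate. PSMB8 (ENSG00000204264, chromosome 6, 32840717 to 32844679, minus strand) had 32, 38 and 26 reads, or 3.53, 3.61 and 3.37 TPM, against 1718, 2069 and 1393 reads of PSMB5. Its TPM was 0.829%, 0.818% and 0.831% of that of PSMB5, a log2 ratio of -6.92 ± 0.0127 (SD, n = 3), which was -5.86 with canonical lengths and -5.84 with coding sequence. With reads pooled, the ratio was 0.825% with an exact (Clopper-Pearson) 95% interval of 0.667% to 1.01%, wider than the spread of the replicates. The interval covers counting error only, as PCR copies are not independent molecules.

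PSMB9 (ENSG00000240065, chromosome 6, 32844136 to 32859851, plus strand) was the lowest immune subunit, with 6, 6 and 3 reads. It reached 0.229%, 0.204% and 0.146% of the TPM of PSMB6, a log2 ratio of -9.04 ± 0.334 (SD, n = 3), which was -8.14 with canonical lengths and -7.67 with coding sequence. PSMB10 (ENSG00000205220, chromosome 16, 67934506 to 67936864, minus strand) had 5, 13 and 12 reads and 1.18, 2.64 and 3.33 TPM, lowest in replicate 1. It reached 0.348%, 0.851% and 1.15% of PSMB7, a log2 ratio of -7.16 ± 0.898 (SD, n = 3). In each pair all 3 replicates had the same direction, and the two-sided exact sign-flip permutation test gave p = 0.25, the smallest that 3 replicates allow. The 3 immune genes together made up 0.504%, 0.651% and 0.726% of the summed TPM of the 6 catalytic genes.

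**Figure D2:**
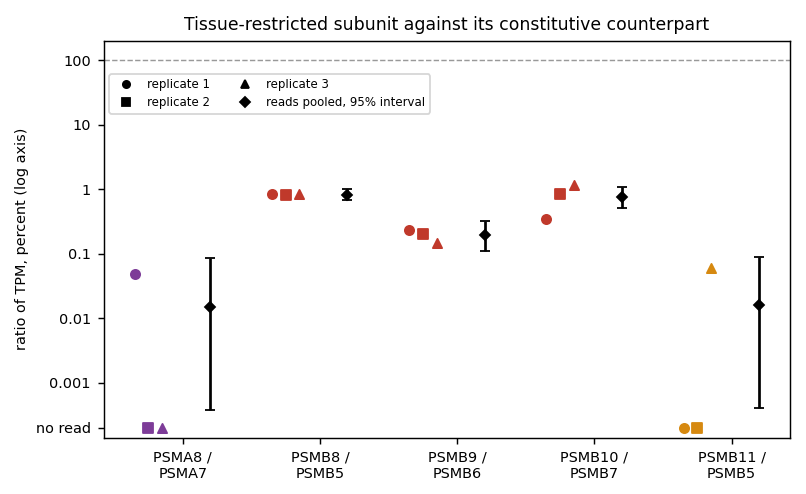
TPM of each tissue-restricted subunit as a percentage of its constitutive counterpart, on a log axis, with 1 coloured point per replicate and the ratio of pooled reads as a black diamond with its exact 95% interval. The dashed line marks equal levels and points on the lowest line had no read. PSMB8 and PSMB10 lay near 1%, PSMB9 lay lower, and PSMA8 and PSMB11 rested on 1 read each.

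PSMA8, the testis alpha4 subunit (chromosome 18, 26133852 to 26193355), had 1, 0 and 0 reads, against 1943, 2440 and 1744 reads of PSMA7. With reads pooled, its TPM was 0.0151% of that of PSMA7, with an exact 95% interval of 0.000382% to 0.0841%. A count of 0 allows up to 3 reads, which is 0.523 and 0.714 TPM in replicates 2 and 3. PSMB11, the thymus beta5 subunit, had 0, 0 and 1 reads and 0.0162% of PSMB5, with an interval of 0.000409% to 0.0901%. At this depth neither could be told from background. Reads of a gene and its counterpart can be confused only where their sequence is the same. The coding sequences of PSMA8 and PSMA7 were 73.3% identical with a longest identical run of 18 bases, and for PSMB8 and PSMB5 this was 70.5% with a run of 22 bases.

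The cell type labels were checked with marker genes. All 6 markers of pluripotent cells were high, from 275 TPM for NANOG to 2576 TPM for LIN28A. Of the leukocyte markers, CD14 had no read and the other 3 reached at most 0.506 TPM. Of the thymic epithelium markers, FOXN1 had no read, LY75 had 0.565 TPM and PRSS16 had 5.81 TPM. Of the LY75 canonical transcript, 72.4% lay in exons of another counted gene on the same strand, so that its level may be too low. Among germ cell markers, SPO11 had no read and DDX4 had 0.0680 TPM, while DAZL had 2.98 TPM and SYCP3 had 4.18 TPM. The part of such cells in the reads of PSMB8, PSMB9, PSMB10 and PSMA8 was not tested.

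In the 19S particle all 17 constitutive subunits among the members were in the high class, with a median of 114 TPM. They spanned 8.21-fold, from PSMC1 at 35.8 ± 1.27 TPM to PSMD2 at 294 ± 12.3 TPM (SD, n = 3). The 6 ATPases of the base, which unfold the substrate as a ring, fell into a higher and a lower set per length of all exons. PSMC3 (RPT5) had 257, 257 and 253 TPM, PSMC4 (RPT3) 188, 188 and 183 TPM, and PSMC5 (RPT6) 143, 141 and 138 TPM. PSMC2 (RPT1) had 49.2 ± 5.64 TPM, PSMC6 (RPT4) 48.6 ± 1.68 TPM, and PSMC1 (RPT2) was the lowest. The ranges of PSMC2 and PSMC6 overlapped. The same 3 genes were the lower ones with canonical lengths, at 30.2 to 101 TPM against 164 to 273 TPM for the others. The gap depended on the length used. PSMC2 had 3370 reads in all libraries and 1331 coding bases, close to PSMC4 with 3741 reads and 1254 coding bases. The split was not looked at per coding sequence.

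Among the other base subunits, the scaffold PSMD2 (RPN1) was the highest 19S gene, the ubiquitin receptor PSMD4 (RPN10) had 144, 137 and 137 TPM, and the scaffold PSMD1 (RPN2) had 72.6, 70.5 and 66.9 TPM. ADRM1, the other ubiquitin receptor of the base, had 171 ± 11.1 TPM. Among the lid members, PSMD7 (RPN8) was highest with 201, 199 and 193 TPM and PSMD6 (RPN7) lowest with 41.1, 42.9 and 37.7 TPM. PSMD14 (RPN11), the enzyme that removes the ubiquitin chain, had 64.5 ± 5.03 TPM, while PSMD7, with which it forms a dimer, was higher in every replicate. PSMD3, PSMD11, PSMD13, PSMD12 and PSMD8 lay between, from 159 TPM for PSMD3 to 89.8 TPM for PSMD8. With canonical lengths PSMD6 was at 163 TPM, PSMD14 at 182 TPM and PSMD1 at 201 TPM. The lowest lid member was then PSMD12 at 83.9 TPM, and PSMD3 was above PSMD7. SEM1, the small lid subunit with another name, had 26.9 ± 2.62 TPM and was in the medium class, close to the boundary of the high class. For SEM1 and ADRM1, which are not members, only the length of all exons was used, so that their levels may depend on it. With levels of all 48 members in order, 18 of the 47 neighbouring pairs had replicate ranges that did not overlap and 29 overlapped.

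Activators replace or accompany the 19S cap. PSME3 (PA28 gamma), the nuclear form, had 242, 237 and 227 TPM and was 4.15 ± 0.473 times the TPM of PSME1 (SD, n = 3). This is a log2 ratio of 2.05, which was 3.38 with coding sequence, 3.58 as CPM and 1.86 with canonical lengths. PSME1 and PSME2 form the PA28 alpha and beta ring that interferon induces, and both were in the high class, with 52.1, 57.9 and 61.4 TPM for PSME1 and 40.2, 46.2 and 46.3 TPM for PSME2. PSME1 was 1.29 ± 0.0374 times PSME2 per length of all exons, but with the length of the canonical transcript PSME2 was the higher, with 121 ± 9.75 against 63.5 ± 5.40 TPM. PSME4 (PA200), which is abundant in testis, had 89.0, 89.3 and 79.5 TPM. The regulator PSMF1 (PI31) had 31.3 ± 0.951 TPM.

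The assembly chaperones act in pairs that set the order of the rings. PSMG1 had 80.3 ± 5.08 TPM and was 5.97 ± 0.363 times its partner PSMG2 (SD, n = 3), which had 13.5 ± 0.718 TPM. PSMG3 and its partner PSMG4 had 25.9 ± 3.01 and 20.2 ± 1.14 TPM. All exons of PSMG2 and PSMG4 sum to 12490 and 10415 bases, and their canonical transcripts to 1070 and 785 bases. With canonical lengths both orders turned, to 94.9 ± 4.93 TPM for PSMG2 against 59.5 ± 3.53 TPM for PSMG1 and to 161 ± 8.54 TPM for PSMG4 against 21.6 ± 2.56 TPM for PSMG3. POMP, the maturation factor of the core, had 79.8 ± 4.41 TPM. Of the chaperones of the 19S base, PSMD10 (gankyrin) was high with 77.2, 82.4 and 68.2 TPM. PSMD9 (p27) had 48, 59 and 59 reads and 2.45 ± 0.505 TPM. PSMD5 (S5b) had 2, 6 and 5 reads and 0.379 ± 0.180 TPM, with no exon shared with another counted gene.

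Several low members shared exons with another counted gene on the same strand. Reads that lie in both genes are often left out of both counts, and the counting used for these files is not given in the sources used here. At least 10% of the canonical transcript was shared in 5 members. The share was 100% in PSMA2 (with ENSG00000256646), 81.4% in PSMA6 (ENSG00000258790), 67.0% in PSMA1 (ENSG00000256206), 56.1% in PSMB10 (ENSG00000261884) and 28.8% in PSMD9 (ENSG00000256950). The other genes had 0, 1 and 0 reads for PSMA2, 1, 0 and 0 for PSMA6, none for PSMA1 and PSMD9, and 38, 31 and 25 reads for PSMB10. PSMA1, PSMA2 and PSMA6 were the 3 lowest constitutive alpha genes, and no other constitutive subunit of the core had such an overlap. Without them the core spanned 5.34-fold in place of 77.3-fold, and its median was 303 TPM in place of 232 TPM.

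Across the genome, 7.75% of protein-coding genes had such an overlap, and 11.6% of those were in the high class, against 30.2% of 17514 genes with none. Genes with at least 50% shared had a median of 0.0707 TPM, against 8.12 TPM for genes with none. The overlapping genes themselves, such as those with 0 or 1 read above, were not taken out of these sets where they were protein-coding. No read at all was counted for 45% of the genes with at least 50% shared, against 12.4% of genes with none. These values thus do not show what an overlap does to the level of a gene such as PSMA1. If all reads of a member had come from the canonical bases outside the shared exons, PSMA1 would have been at 147 ± 7.88 TPM and PSMA6 at 381 ± 23.3 TPM (SD, n = 3, canonical lengths), within the range of the other alpha genes. PSMA2 had no such bases. PSMB10 would have been at 5.46 ± 2.52 TPM, and its log2 ratio to PSMB7 at -6.10 ± 0.898. With all 94 reads of the overlapping gene added to PSMB10, the log2 ratio was -5.00 ± 0.161. Whether the shared exons set the level of these members was not tested.

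**Figure D3:**
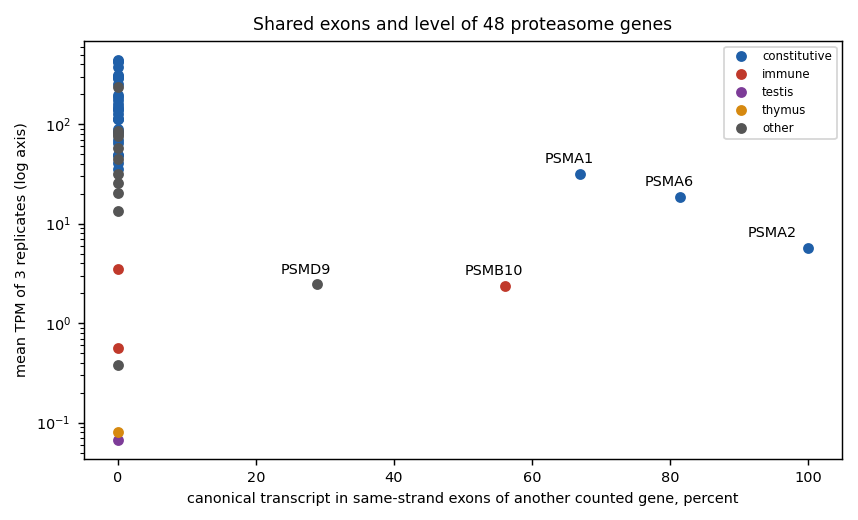
Mean TPM of 3 replicates on a log axis against the percentage of the canonical transcript that lies in same-strand exons of another counted gene, with 1 point per gene for 48 genes. The 5 named genes had at least 10% shared and lay between 2.38 and 31.6 TPM, while the other constitutive genes lay at 35.8 TPM or above.

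Exons of genes on the opposite strand also lay over some members, and whether the counting used strand is not given. NRDE2, with 2136 reads, covered 83.2% of the canonical transcript of PSMC1, the lowest ATPase. The lncRNA ENSG00000259972, with 2452 reads, covered 51.6% of PSMD7, and FTSJ3 13.7% of PSMC5. PSMB8-AS1, with 55 reads, covered 17.3% of the exons of PSMB8. PSMB8 and PSMB9 themselves lie head to head in the MHC region, and their outermost annotated bounds overlap, with a gap of -544 bases. The promoters at their canonical starts lie apart, at 32844048 to 32844297 for PSMB8 and 32853942 to 32854191 for PSMB9. The PSME1 and PSME2 genes lie 4394 bases apart and PSMB5 and PSMB11 lie 6981 bases apart, both on chromosome 14, which carries 8 of the 48 members.

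Processed pseudogenes are a further place where reads of a subunit can go. GENCODE listed 44 pseudogenes named after 17 members, 13 of them of PSMC1. No read was counted on 32 of them, and the remaining 12 had 194 reads in all, or 0.118% of the member reads. Only PSMC2P1 with 44, 36 and 32 reads, PSMD10P1 with 5, 9 and 12 reads and PSME2P3 with 8, 8 and 5 reads had more than 3 reads in every replicate. PSMC2P1 had 3.32% of the reads of PSMC2. None of the 44 was named after an immune subunit, so that adding these reads to their parents could not move the immune median. PSMD4P1, the pseudogene of the median constitutive gene PSMD4, had no read, so that the constitutive median could hardly move either. Reads left out of both a parent and its pseudogene are not seen in these counts.

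Among the 41 members that had at least 100 reads in all replicates, the TPM had a median coefficient of variation of 5.33%, against 5.57% for 9386 protein-coding genes chosen the same way and 5.03% for all protein-coding genes of the high class. Without replicate 3 it was 2.32% for the members. The median biological coefficient of variation of edgeR was 0.0524 over 43 members and 0.0676 over all 15997 genes kept by its filter, and without replicate 3 these were 0.0313 and 0.0359. Against sampling noise alone, the counts of 8 of 44 members differed across replicates by a chi-square test with Benjamini-Hochberg adjustment at 0.05, against 11.0% of 18266 genes. The 8 members were PSMA3, PSMA5, PSMB2, PSMB7, PSMC2, PSMD11, PSMD12 and PSME4. All 48 members had a median of 3337.5 reads, while the 18266 genes had at least 20, and this test calls more genes at higher counts. Neither the chi-square nor the edgeR comparison was matched for depth, so that members cannot be called more or less variable than other genes.

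Deviations of the members leaned one way in a replicate. In replicate 3, the shallowest, 33 of 41 members had a lower CPM than the mean of the other two, against 50.3% of protein-coding genes, with a median log2 ratio of -0.0593. In replicate 1 it was 17 of 41 against 53.3%, and in replicate 2 it was 5 of 41 against 48.2%. Because a library that is low in some members is compared with the same libraries that are high, the 3 counts are not independent. PSMC2 was the clearest case, with 51.3, 53.4 and 42.8 TPM. GC content of the canonical transcript moved with this deviation: the 33 members lower in replicate 3 had a median GC of 46.2% and the 8 higher ones 51.7%. Spearman's rho between GC and the replicate 3 ratio was 0.507 over the 41 members and 0.428 over the 9386 genes, which share the libraries and are not independent. The part of GC content in these deviations was not tested.

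**Figure D4:**
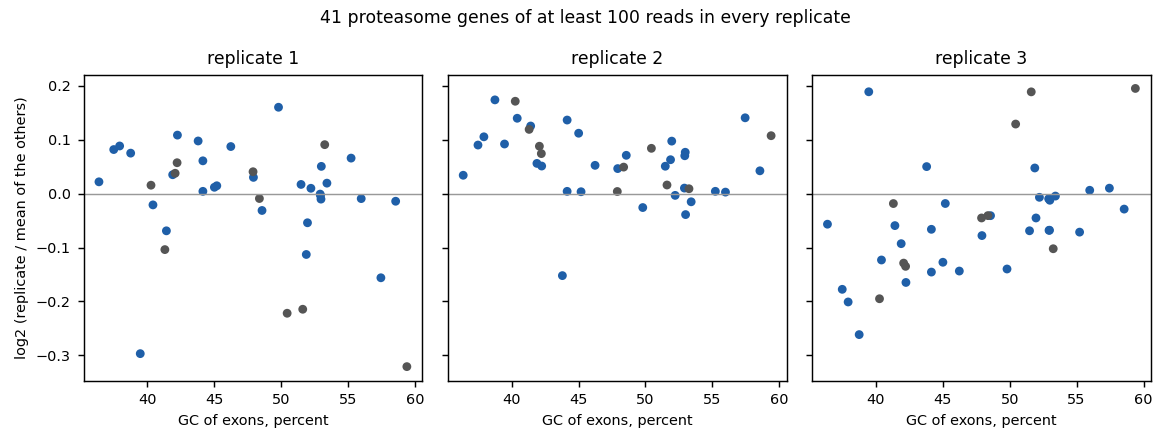
log2 ratio of a member's CPM in 1 replicate to the mean of the others, against GC content in percent, with 1 panel per replicate. The 41 genes had at least 100 reads in every replicate. GC content is that of the canonical transcript, which the axis names as exons. Blue points are constitutive subunits and grey points the rest. In replicate 3, 33 of 41 points lay below 0, and in replicate 2 only 5 did.

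Genes that feed, build or regulate the proteasome were looked up from lists of known roles. For the counts below, 28.8% of all protein-coding genes were in the high class. Among 8 associated and maturation factors 7 were high, with ECPAS at 183 ± 16.0 TPM, the deubiquitinase USP14 at 128 ± 6.96 TPM and AKIRIN2, which brings proteasomes into the nucleus, at 100.5 ± 7.62 TPM. All 6 ubiquitin and E1 genes were high, led by the ubiquitin gene UBB at 1170 ± 30.7 TPM. Of 6 shuttle factors, which carry ubiquitinated proteins to the 19S particle, 5 were high and DDI1 had 1 read. Of 4 genes of the VCP segregase, which extracts proteins for degradation, 3 were high. NFE2L1, the transcription factor that raises proteasome genes when activity falls, had 194, 181 and 178 TPM, while its relative NFE2L2 had 9.75, 8.61 and 7.37 TPM. In reads, without length, these were 2975, 3230 and 2330 against 380, 390 and 245. All levels of listed genes are per length of all exons, and no other length was tried for them. DDI2 and NGLY1, which process NFE2L1, had 45.5 ± 5.01 and 11.0 ± 0.307 TPM (SD, n = 3), and 20.6% of the DDI2 canonical transcript was shared with another gene.

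Of 6 interferon and peptide transport genes, 2 were high, 1 medium and 3 low. For so few genes this is near the 28.8% of all protein-coding genes that were high. The receptor genes IFNGR1 and IFNGR2 had 29.8 ± 0.803 and 39.0 ± 1.95 TPM (SD, n = 3). The factors that act on promoters further down were lower, with IRF1 at 1.53, 1.48 and 1.40 TPM and NLRC5 at 0.372, 0.160 and 0.255 TPM. TAP1 and TAP2, the peptide transporter genes beside PSMB8 and PSMB9 in the MHC region, had 4.97 ± 0.115 and 2.05 ± 0.0784 TPM, and 35.8% of the TAP2 canonical transcript was shared with another gene. TAP1, TAP2 and IRF1 lay between 1.47 and 4.97 TPM, beside 3.50 TPM for PSMB8, 2.38 TPM for PSMB10 and 0.563 TPM for PSMB9. PSME1 and PSME2, which interferon also induces, were far higher, at 57.1 and 44.2 TPM. The receptors were above the boundary of the high class.

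**Figure D5:**
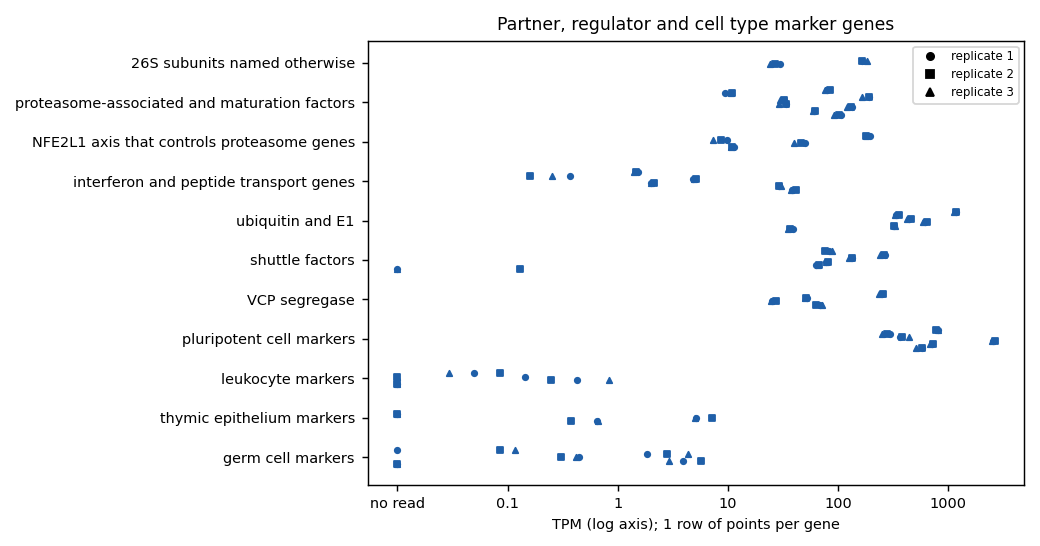
TPM on a log axis in each of 3 replicates for genes of 11 lists of known partners, regulators and cell type markers, with 1 row of points per gene. Points at the left had no read. Ubiquitin genes and pluripotency markers lay above 30 TPM, and leukocyte markers lay below 1 TPM.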

How the data were processed

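The authors trimmed the reads with Trim Galore (0.4.4) and aligned them to GRCh38 with TopHat2 (2.1.1), per the submitters' processing notes, which also name Cufflinks (2.2.1). The deposited values were raw read counts per Ensembl gene, not normalized. How reads were counted, on which annotation and whether by strand, is not given in the sources used here. The library kit named does not state strand. Identifiers were joined to GENCODE release 44 (56948 matched), counts were divided by exon length and scaled to TPM. Exon overlap came from bedtools (2.31.1), dispersion from edgeR (4.0.16, R 4.3.3, intercept only, TMM, filterByExpr), and other values from Python (3.11.15). Both the dispersion and the chi-square steps were tested on simulated counts. Ratios within a library were tested by exact sign-flip permutation. Every member could be named, and other genes came from lists of known roles, pseudogenes by symbol, or genes sharing at least 10% of a member's exons. The members and lists were chosen with earlier results of these data known. Alternative lengths, scalings, filters and leaving out each replicate were tried. With totals of 8655155 to 12024802 reads, a count of 0 allows up to 3 reads. 1 listed gene is not reported here.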

Additional observations from a re-analysis of the deposited data

How the results depend on the processing

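Of 156 alternative values, 109 stayed within the spread between replicates, 39 moved by more and 8 reversed. Counts had to stay within 1.5-fold of their value, and ratios of pooled reads within their counting interval. Some of the 109 could not have moved. The number of members above 3 reads does not depend on length, threshold or ranking, and no pseudogene read was added to an immune pair. The intervals of PSMA8 and PSMB11 are wide, as each rests on 1 read. The 109 are therefore no measure of robustness. Nor do all of the 39 show a large change, as the SD of 3 replicates can fall below the counting error. For PSMB8 to PSMB5 it was 0.0127, so that -6.90 in place of -6.92 counted as moved. For PSMB10 to PSMB7 it was 0.898. No paired analysis was possible because there was 1 condition, with no groups to pair, and ratios of genes were taken within each library. The median of the constitutive subunits, 139 TPM, was 201 TPM with the longest transcript as length, 159 TPM with coding sequence, 188 TPM with canonical transcripts, 135 as CPM, 145 TPM without mitochondrial genes and 145 TPM without members that share exons. The immune median was 0.983 as CPM and 3.50 TPM with reads of the overlapping gene added to PSMB10. The summed level of the members was 6209 TPM without mitochondrial genes and 7550 TPM with canonical lengths. The log2 ratio of PSMB8 to PSMB5 was -6.84 with the longest transcript, -5.84 with coding sequence, -5.75 as CPM, -6.90 with 0.5 count added and -5.86 with canonical length. That of PSMB9 to PSMB6 was -9.46, -7.67 and -7.84 under the first 3 of these and -8.14 with canonical length. That of PSMB10 to PSMB7 was -5.00 with the overlapping gene's reads added and -6.10 over unshared canonical bases. The span of the constitutive core subunits was 84.8-fold, 17.4-fold, 19.2-fold and 29.99-fold with the longest transcript, coding sequence, CPM and canonical length, and 5.34-fold without members that share exons. For 19S it was 10.01-fold, 4.53-fold, 6.64-fold and 10.01-fold. The 8 reversals were in ratios of PSME1 to PSME2 and of the PSMG partners. Other orders of level, compared by canonical length only, also turned, as for PSMA7 and PSMB4. The log2 ratio of PSME1 to PSME2 was 0.37, and -0.70 with coding sequence, -0.93 with canonical length and -0.64 as CPM. That of PSMG1 to PSMG2 was 2.58, and -0.67 with canonical length. That of PSMG3 to PSMG4 was 0.35, and -0.36 with the longest transcript, -0.42 with coding sequence, -2.91 with canonical length and -2.05 as CPM. With the canonical length, 19 members were over 1.5-fold higher, 3 were over 1.5-fold lower and 26 were within 1.5-fold of their level.

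The alternatives with canonical lengths, shared exons or the PSME and PSMG ratios were chosen after seeing the data. Leaving out each replicate in turn gave a median coefficient of variation from 2.32% to 5.25%, lowest without replicate 3, and a median biological coefficient of variation from 0.0313 to 0.0671. The log2 ratios that rest on a pooled read, of PSMA8 and PSMB11, had no value without the replicate that held it. Counting depth limited PSMA8, PSMB11, PSMB9, PSMB10 and PSMD5, with 1 to 30 reads each over all libraries. Size factors of the median-of-ratios kind were computed in edgeR.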
